A study of Mus musculus with 8 samples.

Results

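Integrins and laminins were followed across 5 groups of mouse salivary gland tissue on 8 one-colour Agilent arrays. The members were taken by name, as every non-control probe whose gene name in the scanner files is that of an alpha integrin, a beta integrin or a laminin chain. This gave 35 genes of the 27574 named on the array, made up of 17 alpha integrins, 8 beta integrins and 10 laminin chains, measured by 79 probes. Of these, 31 were bright enough to be tested among 16363 genes. Itga2 and Itga2b (alpha integrins of collagen binding and of platelets) and Lamc3 were well above background on no array, and Lama1 was so on untreated tumour replicate 2 alone, so these 4 have no test. Itgad has no probe under the naming rule. Lamb1 is listed under another name in the files and was left outside the set.

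The groups were untreated AKT-induced salivary gland tumours (2 arrays), such tumours given the mTOR inhibitor rapamycin for 3 days (1 array) or 14 days (2 arrays), and normal gland, either parotid (2 arrays) or submandibular (1 array). The labels give no genotype, strain, age or promoter for the tumour model, and do not tell whether replicate arrays stand for different animals, so p-values measure only the spread between these arrays, which may be technical. For the lone arrays (day 3, submandibular) the fit borrows the spread of the groups that have replicates. Slide 1 held both untreated tumours, day 14 replicate 1 and parotid replicate 1, and slide 2 held the other arrays. Untreated tumours thus shared no slide with the day 3 or submandibular array, and comparisons with either also differ by slide.

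Integrins are receptors made of an alpha and a beta chain that bind cells to the matrix or to other cells. Laminins are trimers of an alpha, a beta and a gamma chain and are the main network of basement membranes, the sheets on which gland epithelium rests. A laminin that holds the Lama3 and Lamb3 chains is bound by the integrin of Itga6 and Itgb4 at hemidesmosomes, the anchors of basal epithelial cells. Laminins with the Lama5 chain are found under most mature epithelia. Leukocyte integrins have other partners. Itgb2 pairs with Itgal, Itgam or Itgax, and Itgb7 pairs with Itga4 to home lymphocytes to mucosa or with Itgae to hold them beside epithelium.

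A level here is the log2 signal of a probe minus the 75th percentile of all signals on its array, so a level of 0 is a signal equal to that percentile. Levels of different genes come from different probes and are not set against each other. The 75th-percentile signal ran from 145 in parotid replicate 2 to 972 in untreated tumour replicate 2, and the lowest level that was well above background ran from −5.60 in untreated tumour replicate 2 to −2.95 in the submandibular gland, so weak genes could be read deeper in the untreated tumours. The 2 parotid arrays stood apart from each other in lymphocyte genes. The summed signal of the T cell markers was 61.4 times the 75th percentile in parotid replicate 1 and 1.31 times in replicate 2. Differences of leukocyte integrins between untreated tumour and parotid are therefore also given with 1 parotid array left out. Such a fit no longer holds the spread between the parotid arrays, so its p-values are not given. All 6 epithelial markers were well above background on every array, with sums of 493 and 690 in untreated tumour, 685 at day 3, 353 and 442 at day 14, 266 and 506 in parotid and 545 in submandibular gland. Of the 6, 3 were higher and none was lower in untreated tumour against parotid (median 1.03), and 1 was higher and 4 were lower at day 14 against untreated tumour (median −1.18). Of all genes tested, 18.7% were higher and 20.3% lower in the first comparison, and 24.3% and 23.5% in the second. Acinar markers, those of the secretory cells, summed to 73.1 and 119 in untreated tumour, 94.8 at day 3, 3426 and 3778 at day 14, 3025 and 6122 in parotid and 680.4 in submandibular gland, and the part of either list in the results below was not tested.

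**Figure D1:**
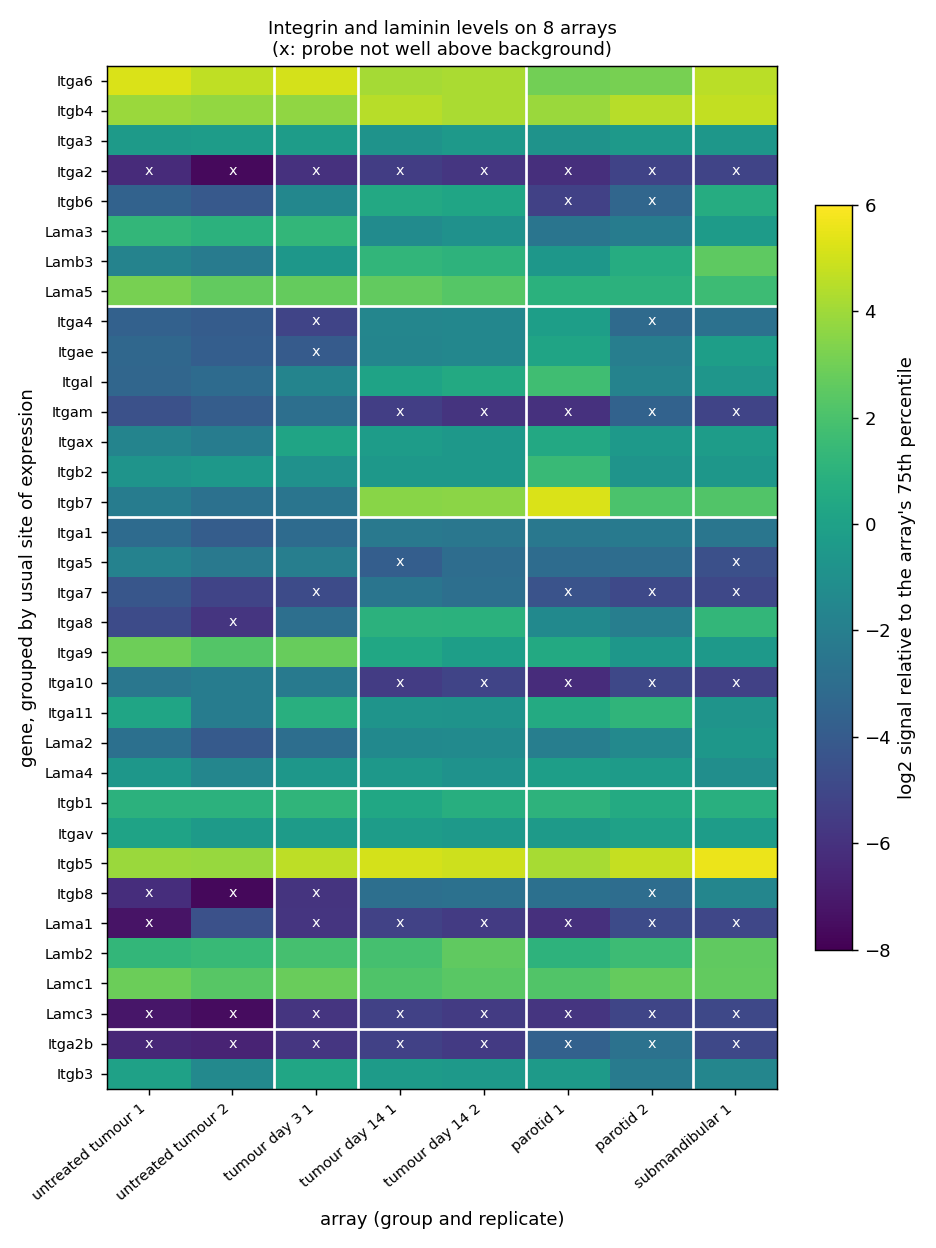
Map of the level of each gene reported here (rows, grouped by usual site of expression) on each array (columns, in groups), coloured by log2 signal relative to the array's 75th percentile. A cross marks a probe that was not well above background, and colours compare arrays within a row only. Itgb7 is dark in both untreated tumours and at day 3 and bright in all other columns, and Lama3 runs the other way between untreated tumour and parotid.

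In untreated tumour against parotid, 5 of the 31 tested members were higher and 8 were lower at an adjusted p under 0.05, while 18.7% of all genes tested were higher and 20.3% were lower. The median log2 difference was −0.12 over the members and 0.02 over all genes. The share higher was thus near that of the whole array and the share lower was somewhat above it. With the authors' deposited log2 values the split was 5 higher and 5 lower. Of 8 tested epithelial members 3 were higher and 1 lower, of 7 leukocyte members 4 were lower, of 9 mesenchymal members 2 were higher and 2 lower, and of 6 broadly expressed members 1 was lower. Itgb3, grouped with the platelet integrins, did not pass. This grouping by usual site of expression is a description only, written after the values were seen.

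In day 14 tumour against untreated tumour, 10 members were higher and 4 lower, against 24.3% and 23.5% of all genes, with a median difference of 0.52 over the members and 0.02 over all genes. This comparison and the last share the untreated tumour arrays. In day 14 tumour against parotid, 5 members were higher and none was lower, against 6.25% and 5.07% of all genes. In untreated tumour against submandibular gland, 5 were higher and 10 lower, against 14.3% and 15.2%.

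At day 3 none of the 31 members passed the limma test against untreated tumour, where 0.00611% of all genes (1 gene) were higher and 0% lower. At an unadjusted p under 0.05 there were 5 members, Itga8, Itgb6, Itgax and Lamb3 among them, against 8.78% of all genes. These named members were above the untreated tumours, by 2.42 ± 0.57 for Itga8, 2.32 ± 0.79 for Itgb6, 2.06 ± 0.49 for Itgax and 1.35 ± 0.55 for Lamb3 (log2 difference ± standard error, 1 array against 2). Their adjusted p was 0.29 for Itga8 and Itgax, 0.48 for Itgb6 and 0.56 for Lamb3. Leaving out parotid replicate 1 or 2 changed the shared estimate of spread but not the differences of Itgb6 (2.32) and Itgax (2.06).

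**Figure D2:**
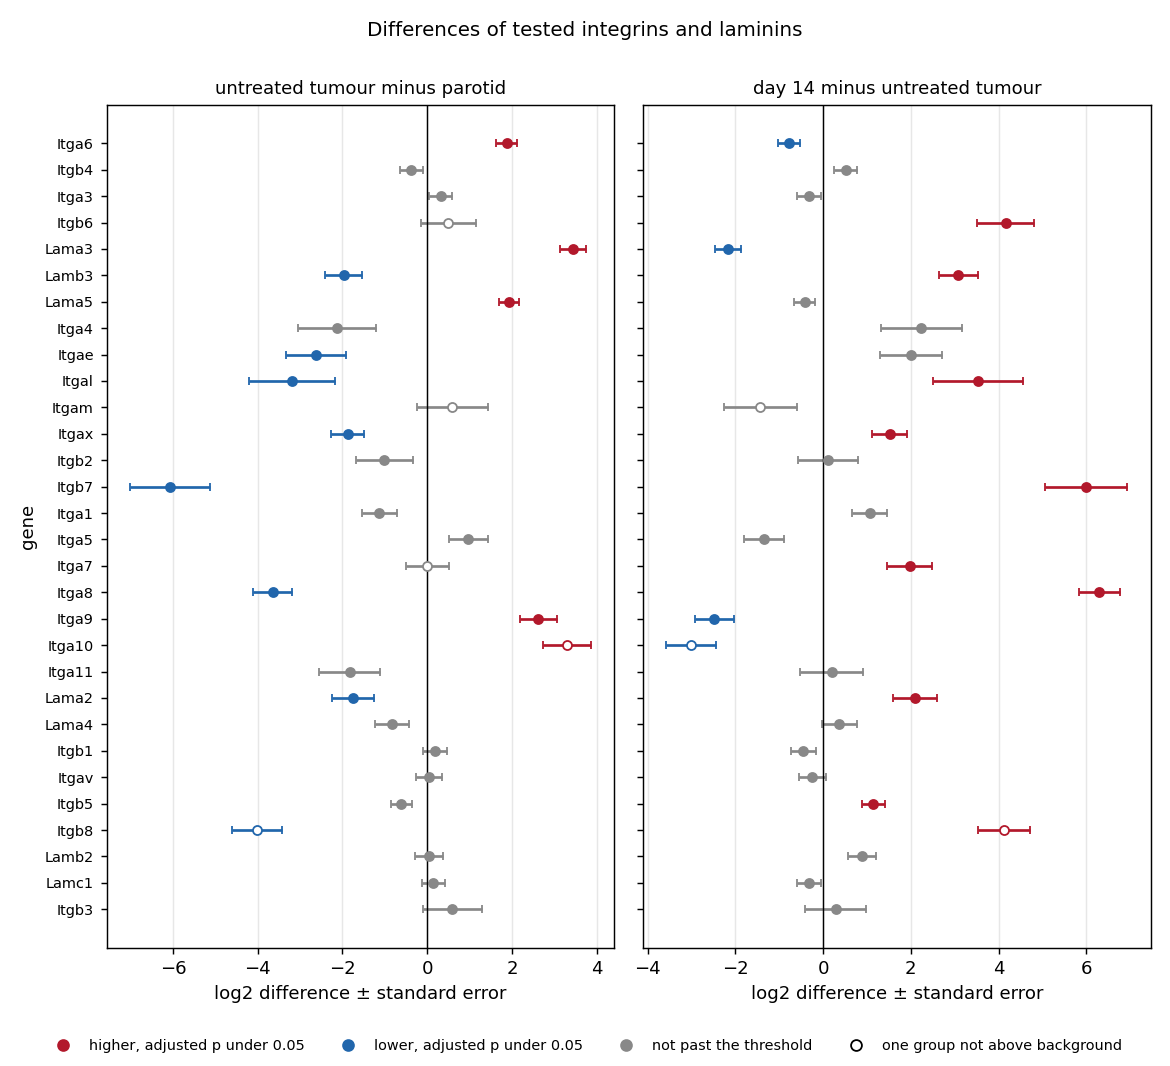
Log2 difference (horizontal axis) with its standard error for the tested members reported here, as untreated tumour minus parotid (left) and day 14 minus untreated tumour (right). Red and blue mark members past the threshold, and open circles mark a gene that was not well above background in one of the groups, whose size is uncertain. Lama3, Itga9 and Itga10 lie right of 0 on the left panel and left of it on the right panel, and Itgb7, Itga8 and Lamb3 the reverse.

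Lama3 and Lamb3, which join in one laminin, changed in opposite directions in the tumours. Lama3, whose chain gives this laminin its integrin-binding end, was at 1.24 and 0.97 in the untreated tumours, against −2.57 and −2.10 in the parotid glands. The groups lay far apart, and the difference was 3.44 ± 0.30 (10.9-fold, limma, adjusted p = 0.000592, 2 arrays against 2). On slide 1 alone it was 3.68. The second kept Lama3 probe differed by 1.5 in the same direction. It was kept only through the untreated tumours and was not well above background elsewhere, so it adds no support.

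Lamb3, the beta chain that joins Lama3 in the trimer, went the other way. Its level was −1.73 and −2.16 in the untreated tumours, against −0.61 and 0.67 in the parotid glands, with no overlap. The difference was −1.97 ± 0.45 (adjusted p = 0.0165) and −1.33 on slide 1. It just missed the threshold without untreated tumour replicate 1 (−2.19, adjusted p = 0.0505) and missed it without replicate 2 (−1.76, adjusted p = 0.0902).

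After 14 days of rapamycin Lama3 was lower and Lamb3 higher than in untreated tumour. Lama3 was at −1.23 and −0.89 at day 14, against 1.24 and 0.97 in untreated tumour, a fall of −2.17 ± 0.30 (adjusted p = 0.00247). Lamb3 was at 1.21 and 1.06 at day 14, against −1.73 and −2.16 in untreated tumour, a rise of 3.08 ± 0.45 (adjusted p = 0.00281). Both differences kept their direction and passed in all 18 alternative settings run for them.

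Lama3 at day 3 was 1.28, close to the untreated tumours, and Lamb3 at day 3 was −0.59, between untreated tumour and day 14. At day 14 Lama3 was still above parotid by 1.28 ± 0.30 (adjusted p = 0.0473), a call that was lost in 14 of 18 alternative settings, among them without either day 14 array (1.44 and 1.11) or either untreated tumour array.

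The submandibular gland had the highest level of Lamb3 (2.53) of all 8 arrays. In untreated tumour against submandibular gland, Lamb3 was lower by −4.47 ± 0.55 (adjusted p = 0.0026) and Lama3 was higher by 1.41 ± 0.37 (adjusted p = 0.0337). Lama3 was thus higher on the untreated tumour arrays than in either gland and Lamb3 lower than in either. With a fixed slide term, Lama3 did not pass against submandibular gland (1.81, adjusted p = 0.053). Without any 1 of the untreated or day 14 tumour arrays, Lama3 (1.27 to 1.54) did not pass against submandibular gland.

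Lama5, the alpha chain of laminins under mature epithelium, was at 3.12 and 2.65 in the untreated tumours, against 0.92 and 1.01 in the parotid glands. It was higher by 1.92 ± 0.24 (3.79-fold, adjusted p = 0.00197), and by 1.97 on slide 1. Unlike Lama3 it showed no called change at day 14, where it was at 2.62 and 2.32 and differed from untreated tumour by −0.41 ± 0.24 (adjusted p = 0.20). Day 14 tumours were higher than parotid by 1.51 ± 0.24 (adjusted p = 0.019), with 1.71 on slide 1 and 1.31 on slide 2, but without either day 14 array (1.36 and 1.66) this did not pass. Untreated tumours were higher than submandibular gland by 1.30 ± 0.29 (adjusted p = 0.0208), which did not pass without untreated tumour replicate 1 (1.06) or either day 14 array.

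Itga6, the alpha chain of the main laminin receptors of epithelium, was at 5.23 and 4.65 in the untreated tumours, against 3.00 and 3.15 in the parotid glands. The difference was 1.87 ± 0.25 (3.66-fold, adjusted p = 0.00246), it was 1.95 on slide 1, and its 3 probes ranged from 1.87 to 2.08. The submandibular gland, at 4.54, lay just below the tumours, and that difference of 0.41 ± 0.31 did not pass (adjusted p = 0.36).

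At day 14 Itga6 was at 4.10 and 4.23, below untreated tumour by −0.78 ± 0.25 (adjusted p = 0.0422) and above parotid by 1.09 ± 0.25 (adjusted p = 0.0438). Each call was lost in 10 of 18 alternative settings, including the removal of any 1 of the untreated or day 14 tumour arrays, which moved the first difference to between −1.07 and −0.49 and the second to between 1.02 and 1.15. The probes of Itga6 also disagreed on the change from untreated tumour to day 14, with differences from −1.14 to 0.67.

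Itgb4, which pairs with Itga6 at hemidesmosomes, did not follow it. It was at 3.90 and 3.75 in the untreated tumours, against 3.89 and 4.51 in the parotid glands. The difference was −0.38 ± 0.26 (adjusted p = 0.30), or −0.68 without parotid replicate 1. At day 14 Itgb4 was at 4.48 and 4.21, and its difference from untreated tumour was 0.52 ± 0.26 (adjusted p = 0.15). This passed with the arrays of the 2 groups alone (adjusted p = 0.0247). Itga3, the alpha chain of another laminin receptor, stayed between −0.82 and −0.24 on all 8 arrays and passed in none of the 5 comparisons, but its 3 probes disagreed in sign in 4 of these.

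Itgb6, the epithelial beta chain that binds latent TGF-beta together with Itgav, rose strongly at day 14. It was at 0.43 and 0.21 at day 14, against −3.62 and −4.08 in untreated tumour, a rise of 4.16 ± 0.65 (17.9-fold, adjusted p = 0.0036), and 4.27 on slide 1. At day 3 it was at −1.53, between those groups.

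Itgb6 was not well above background in either parotid gland, so day 14 tumours were at least 14.4-fold higher than parotid (adjusted p = 0.0136). The log2 difference was 5.74 on slide 1 and 3.57 on slide 2, and without either day 14 array (4.55 and 4.76) it did not pass. "At least" folds set the mean of the bright group against the higher of the probe's own level and the lowest level well above background on each array of the dim group. In the submandibular gland Itgb6 was at 0.68, close to the day 14 tumours, and untreated tumour was below it by −4.53 ± 0.79 (adjusted p = 0.00874). A fixed slide term removed that call. The difference between untreated tumour and parotid did not pass (0.49 ± 0.65, adjusted p = 0.58), and without parotid replicate 2 it was 1.46.

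**Figure D3:**
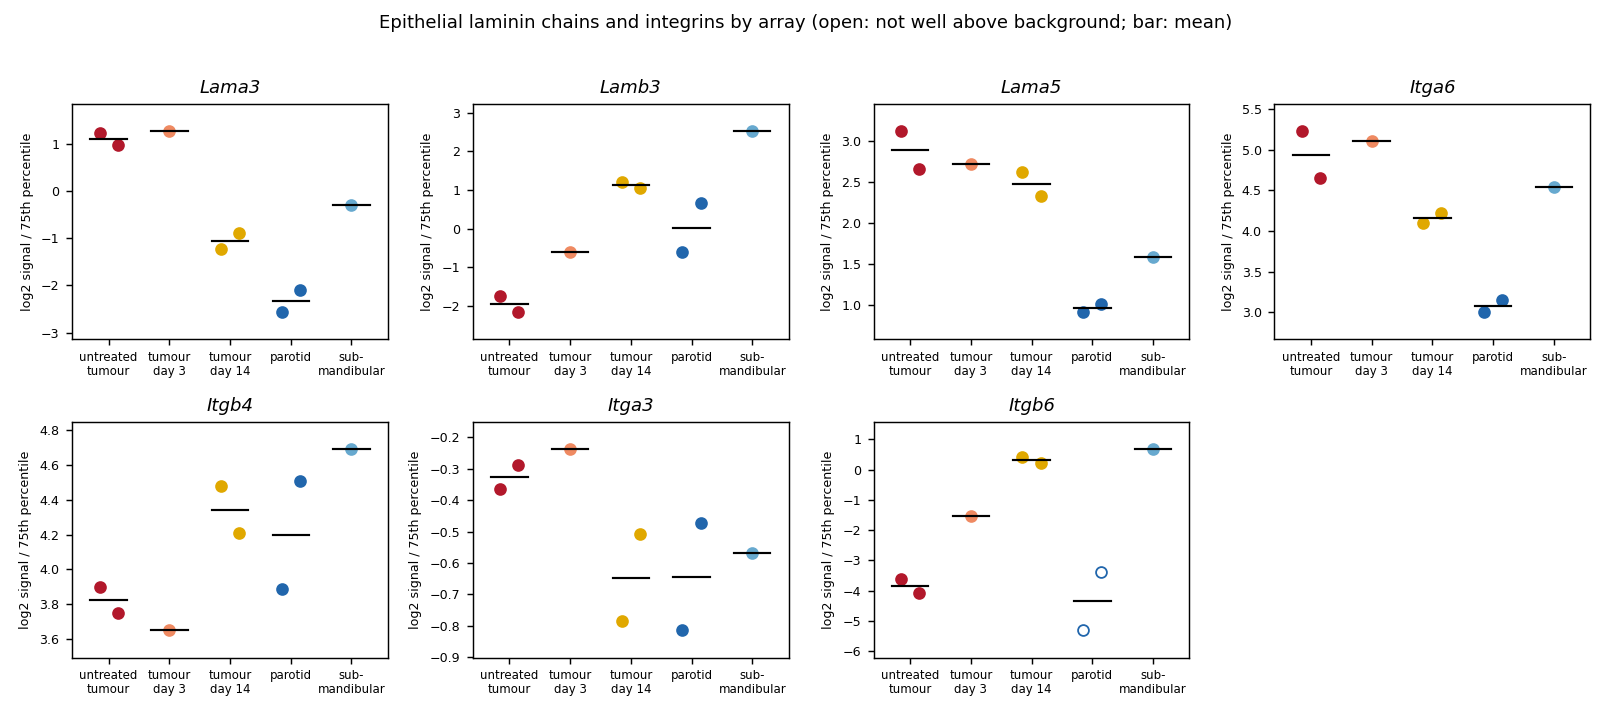
Levels of epithelial members on each array (vertical axes, log2 signal relative to the 75th percentile, each panel on its own scale), by group. Open points were not well above background and bars are group means. Lama3, Lama5 and Itga6 are highest in untreated and day 3 tumours, Lamb3 is lowest in untreated tumours, and Itgb6 is high at day 14 and in submandibular gland.

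The partners of these chains include the genes of the hemidesmosome. Of the 6 listed, none was higher and 2 were lower in untreated tumour against parotid, with a median difference of −0.79 against 0.02 over all genes. Col17a1, the transmembrane collagen of hemidesmosomes, was lower by −2.56 ± 0.50 (adjusted p = 0.00959), and Dst, a plakin that ties the keratin network to Itgb4, by −1.27 ± 0.33 (adjusted p = 0.027). Both were higher at day 14 than in untreated tumour, Col17a1 by 3.43 ± 0.50 (adjusted p = 0.00278) and Dst by 3.19 ± 0.33 (adjusted p = 0.000912), and none of the 6 was lower. With 18.7% of all genes higher and 20.3% lower in the first comparison, and 24.3% and 23.5% in the second, nothing is read from these counts over 6 genes.

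Of 7 tested markers of basal and myoepithelial cells, which include Krt5 and Krt14 of the hemidesmosome list, 3 were lower in untreated tumour against parotid (20.3% of all genes). At day 14 against untreated tumour 4 were higher (24.3% of all genes). Nothing is read from these counts. All 7 were well above background on every array, and their summed signal was 34.6 and 20.4 times the 75th percentile in untreated tumour, 97.1 at day 3, 152 and 157 at day 14, 27.1 and 109 in parotid and 222 in submandibular gland. Their part in these results was not tested. In bulk tissue, fewer cells of a type and less RNA per cell cannot be told apart.

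Of the 16 basement membrane partners of laminin, 12 were tested. In untreated tumour against parotid 2 were higher and 2 lower (18.7% and 20.3% of all genes). At day 14 against untreated tumour 3 were higher and 2 lower (24.3% and 23.5% of all genes). These counts are near those shares. Col4a1 and Col4a2, the common chains of type IV collagen, were higher in untreated tumour than in parotid by 1.46 ± 0.44 (adjusted p = 0.0409) and 1.24 ± 0.38 (adjusted p = 0.0456). Bcam, a laminin alpha-5 receptor outside the integrin family, was lower by −1.97 ± 0.42 (adjusted p = 0.0135), and at day 14 it was higher than in untreated tumour by 1.92 ± 0.42 (adjusted p = 0.012).

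Col4a6, a collagen chain of epithelial and smooth muscle basement membranes, was lower in untreated tumour than in parotid by −5.36 ± 0.56 (adjusted p = 0.00108) and higher at day 14 than in untreated tumour by 6.44 ± 0.56 (adjusted p = 0.000568). Its level of −7.36 in untreated tumour is below the lowest level that was well above background there, so these sizes are uncertain. At day 14 Agrn, a heparan sulphate proteoglycan, was higher than in untreated tumour by 0.90 ± 0.28 (adjusted p = 0.0394). Col4a2 fell by 1.62 ± 0.38 (adjusted p = 0.0156) and Col18a1, a basement membrane collagen, fell by 0.90 ± 0.29 (adjusted p = 0.045).

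Of the 7 leukocyte integrins, Itgb7, Itgae, Itgal and Itgax were lower in the untreated tumours than in parotid, and Itga4, Itgb2 and Itgam did not pass. Itgb7, the beta chain of the mucosal homing receptors, was at −2.11 and −2.80 in untreated tumour, against 5.22 and 2.03 in parotid. The difference, the largest of the 31 members in this comparison, was −6.08 ± 0.94 (67.5-fold lower, adjusted p = 0.00425). On slide 1 it was −7.67, and without parotid replicate 1 it was −4.48.

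The promoters of 4 members, chosen after their values were seen, are shown so that leukocyte members that were lower in untreated tumour (Itgb7, Itgax) can be set beside a laminin chain that was higher (Lama5) and one that was lower (Lamb3). RefSeq promoters (GRCm38.p6) were listed for 22 of the 35 members, and each sequence is the 250 bases before the listed start. Capitals mark the ETS core AGGAAG and the AP-1 site TGANTCA, searched on both strands, and no match of one overlaps a match of the other here. Of 32851 such windows in the table, 29.5% hold the first and 6.75% the second.
Itgb7 (chr15:102231936-102232185, minus strand): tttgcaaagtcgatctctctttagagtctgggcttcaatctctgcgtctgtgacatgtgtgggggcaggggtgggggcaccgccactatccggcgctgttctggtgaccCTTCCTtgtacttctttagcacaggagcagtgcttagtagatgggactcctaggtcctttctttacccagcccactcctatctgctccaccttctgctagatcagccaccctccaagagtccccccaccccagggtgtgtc
Itgax (chr7:128129300-128129549, plus strand): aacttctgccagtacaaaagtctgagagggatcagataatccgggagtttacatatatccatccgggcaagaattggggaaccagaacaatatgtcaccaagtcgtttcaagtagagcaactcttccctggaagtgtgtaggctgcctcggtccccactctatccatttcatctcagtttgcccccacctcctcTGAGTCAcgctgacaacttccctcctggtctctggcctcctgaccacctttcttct
Lama5 (chr2:180225860-180226109, minus strand): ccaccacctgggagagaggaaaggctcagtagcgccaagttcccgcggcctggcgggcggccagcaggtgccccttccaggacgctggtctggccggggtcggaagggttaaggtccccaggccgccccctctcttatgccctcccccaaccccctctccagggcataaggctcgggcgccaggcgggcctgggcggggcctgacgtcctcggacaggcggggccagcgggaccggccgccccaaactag
Lamb3 (chr1:193301744-193301993, plus strand, the more upstream of 2 listed starts): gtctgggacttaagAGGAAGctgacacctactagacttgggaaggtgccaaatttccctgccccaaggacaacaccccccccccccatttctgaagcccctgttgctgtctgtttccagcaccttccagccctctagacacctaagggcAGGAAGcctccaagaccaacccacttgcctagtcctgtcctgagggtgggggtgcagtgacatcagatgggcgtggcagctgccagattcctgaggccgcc

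The Itgb7 window holds 1 ETS core, on the minus strand of the gene, beginning 141 bases before the start. The Itgax window holds 1 match to the AP-1 consensus, found on both strands and beginning 56 bases before the start. The Lamb3 window holds 2 ETS cores, and the Lama5 window holds neither motif. These matches are a description of the letters only.

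Itgae, the partner of Itgb7 on lymphocytes within epithelium, was at −3.30 and −3.82 in untreated tumour, against 0.17 and −2.03 in parotid. The difference was −2.63 ± 0.71 (adjusted p = 0.0295), and −1.53 without parotid replicate 1. It did not pass without any 1 of the untreated or day 14 tumour arrays (−2.89 to −2.37). Itga4, the other partner of Itgb7, was at −3.65 and −3.92 in untreated tumour, against −0.17 and −3.18 in parotid, where replicate 2 was not well above background. Its difference of −2.12 ± 0.92 did not pass (adjusted p = 0.11), and it was −3.62 without parotid replicate 2.

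Itgal, the alpha chain of the lymphocyte receptor LFA-1, was at −3.37 and −3.09 in untreated tumour, against 1.69 and −1.76 in parotid. It was lower by −3.19 ± 1.02 (adjusted p = 0.0492), and by −1.46 without parotid replicate 1. That call was lost in 9 of 18 alternative settings, the deposited log2 values of the authors (−2.83) and the removal of any 1 of the untreated or day 14 tumour arrays (−3.33 to −3.05) among them. Itgax, a marker of dendritic cells and some macrophages, was at −1.69 and −2.12 in untreated tumour, against 0.45 and −0.51 in parotid. The difference was −1.88 ± 0.40 (adjusted p = 0.0132), or −1.40 without parotid replicate 1. It did not pass without untreated tumour replicate 2 (−1.66, adjusted p = 0.0818).

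Itgb2, the beta chain shared by Itgal, Itgam and Itgax, was at −0.77 and −0.54 in untreated tumour, against 1.48 and −0.76 in parotid. Parotid replicate 1 alone stood above the rest of the 8 arrays, which lay between −0.89 and −0.54. The difference was −1.01 ± 0.68 (adjusted p = 0.27), or 0.10 without parotid replicate 1 and −2.13 without replicate 2, so it depends on replicate 1.

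Itgam, the alpha chain of neutrophil and macrophage Mac-1, was the one leukocyte member well above background in the untreated tumours and at day 3 but on no array of the other groups. It was at −4.53 and −3.87 in untreated tumour and −2.88 at day 3. No fold is given, because the values of the dim arrays, from −5.99 to −3.61, overlap these, and the difference from parotid did not pass (0.60 ± 0.83, adjusted p = 0.60). It was 1.79 without parotid replicate 2 and −0.60 without replicate 1. Itgam entered the test only through the tumours where it was high, so nothing is read from these differences.

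At day 14 Itgb7, Itgal and Itgax were higher than in untreated tumour. Itgb7 was at 3.54 and 3.55, against −2.11 and −2.80 in untreated tumour, a rise of 6.0 ± 0.94 (63.8-fold, adjusted p = 0.0037). Itgal was at 0.13 and 0.48, a rise of 3.53 ± 1.02 (adjusted p = 0.0306), and Itgax was at −0.24 and −0.53, a rise of 1.52 ± 0.40 (adjusted p = 0.0217). Without any 1 of the untreated or day 14 tumour arrays Itgal (3.36 to 3.71) and Itgax (1.31 to 1.74) did not pass, whereas Itgb7 did in all 18 settings. None of the 7 leukocyte members passed the limma test between day 14 and parotid, and the values overlapped for each of them. The slides gave opposite signs for 6 of the 7, with day 14 minus parotid at −1.68 on slide 1 and 1.52 on slide 2 for Itgb7, and −1.56 and 2.24 for Itgal. The slide 1 values use parotid replicate 1 and the slide 2 values use parotid replicate 2.

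Itgae was at −1.61 and −1.50 at day 14, and its difference from untreated tumour of 2.01 ± 0.71 fell just outside the threshold (adjusted p = 0.0572). Itga4 was at −1.57 and −1.54, a difference of 2.24 ± 0.92 (adjusted p = 0.0881). Itgam was not well above background at day 14 (−5.40 and −5.88), and its difference of −1.44 ± 0.83 did not pass (adjusted p = 0.20). Itgb2, at −0.54 and −0.55, differed by 0.11 ± 0.68 (adjusted p = 0.91). With the arrays of the 2 groups alone, Itgae (adjusted p = 0.00194) and Itga4 (0.000917) passed. Itgam passed there too (0.0314). It entered the test only through the untreated and day 3 tumours, where it was high, so nothing is read from that call. With normexp background correction the Itgam difference was 0.39.

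At day 3 Itgb7 (−2.56) and Itgae (−3.96, not well above background) were close to the untreated tumours, whereas Itgax (0.16) was already at the level of the glands. Itgal was at −1.66, between untreated tumour and day 14. In untreated tumour against submandibular gland, Itgb7 was lower by −4.63 ± 1.15 (adjusted p = 0.0281), Itgae by −3.41 ± 0.87 (adjusted p = 0.03) and Itgax by −1.63 ± 0.49 (adjusted p = 0.0493). Each of these 3 calls was lost without any 1 of the untreated or day 14 tumour arrays, with differences of −4.98 to −4.29 for Itgb7, −3.67 to −3.16 for Itgae and −1.85 to −1.41 for Itgax. Itgal, Itga4, Itgb2 and Itgam did not pass there.

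Markers of lymphocytes ran in the direction of Itgb7, Itgae and Itgal between untreated tumour and parotid and between untreated tumour and day 14, but not everywhere. At day 3 Itgal (−1.66) lay above untreated tumour, and neither the T cell nor the B cell sum did. Itgae was higher in submandibular gland (−0.15) than at day 14 (−1.61 and −1.50), where both sums were larger. Of 8 T cell markers, 2 and 1 were well above background in the untreated tumours and 0 at day 3, against 7 and 7 at day 14, 8 and 5 in parotid and 6 in submandibular gland. The summed signal of the 7 tested was 0.25 and 0.26 in untreated tumour, 0.22 at day 3, 10.9 and 13.8 at day 14, 61.4 and 1.31 in parotid and 3.50 in submandibular gland.

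The 5 tested B and plasma cell markers summed to 0.26 and 0.13 in untreated tumour, 0.25 at day 3, 70.4 and 77.1 at day 14, 100.2 and 56.8 in parotid and 46.4 in submandibular gland. Of 6 listed, 3 and 2 were well above background in untreated tumour, 1 at day 3 and 5 and 6 at day 14. In parotid 6 and 3 were so, and in submandibular gland 4. The mean level of those tested was 3.83 in parotid replicate 1 and −0.69 in replicate 2. Parotid replicate 1, the higher replicate for Itgb7, Itgae, Itga4 and Itgal, was also the one with more signal of both marker lists. The part of these cells in the integrin results was not tested.

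Markers of macrophages and dendritic cells did not follow the same course as a list. Of 8, 1 was higher and 2 were lower in untreated tumour against parotid (18.7% and 20.3% of all genes). At day 14 against untreated tumour 2 were higher and 3 lower (24.3% and 23.5% of all genes). Their summed signal was 157 and 225 in untreated tumour, 201 at day 3, 148 and 158 at day 14, 369 and 250 in parotid and 178 in submandibular gland. Of the 4 tested neutrophil markers, S100a8 and S100a9 were higher in untreated tumour than in parotid (5.35 and 4.02) and lower at day 14, S100a8 being not well above background there, whereas Csf3r (−0.32) and Mmp9 (−1.03) did not pass against parotid and neither passed at day 14. Their summed signals were 24.5 and 22.4 in untreated tumour and 65.0 at day 3, against 1.13 and 1.10 at day 14, 4.19 and 0.56 in parotid and 0.23 in submandibular gland. Their part in the Itgam values was not tested.

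**Figure D4:**
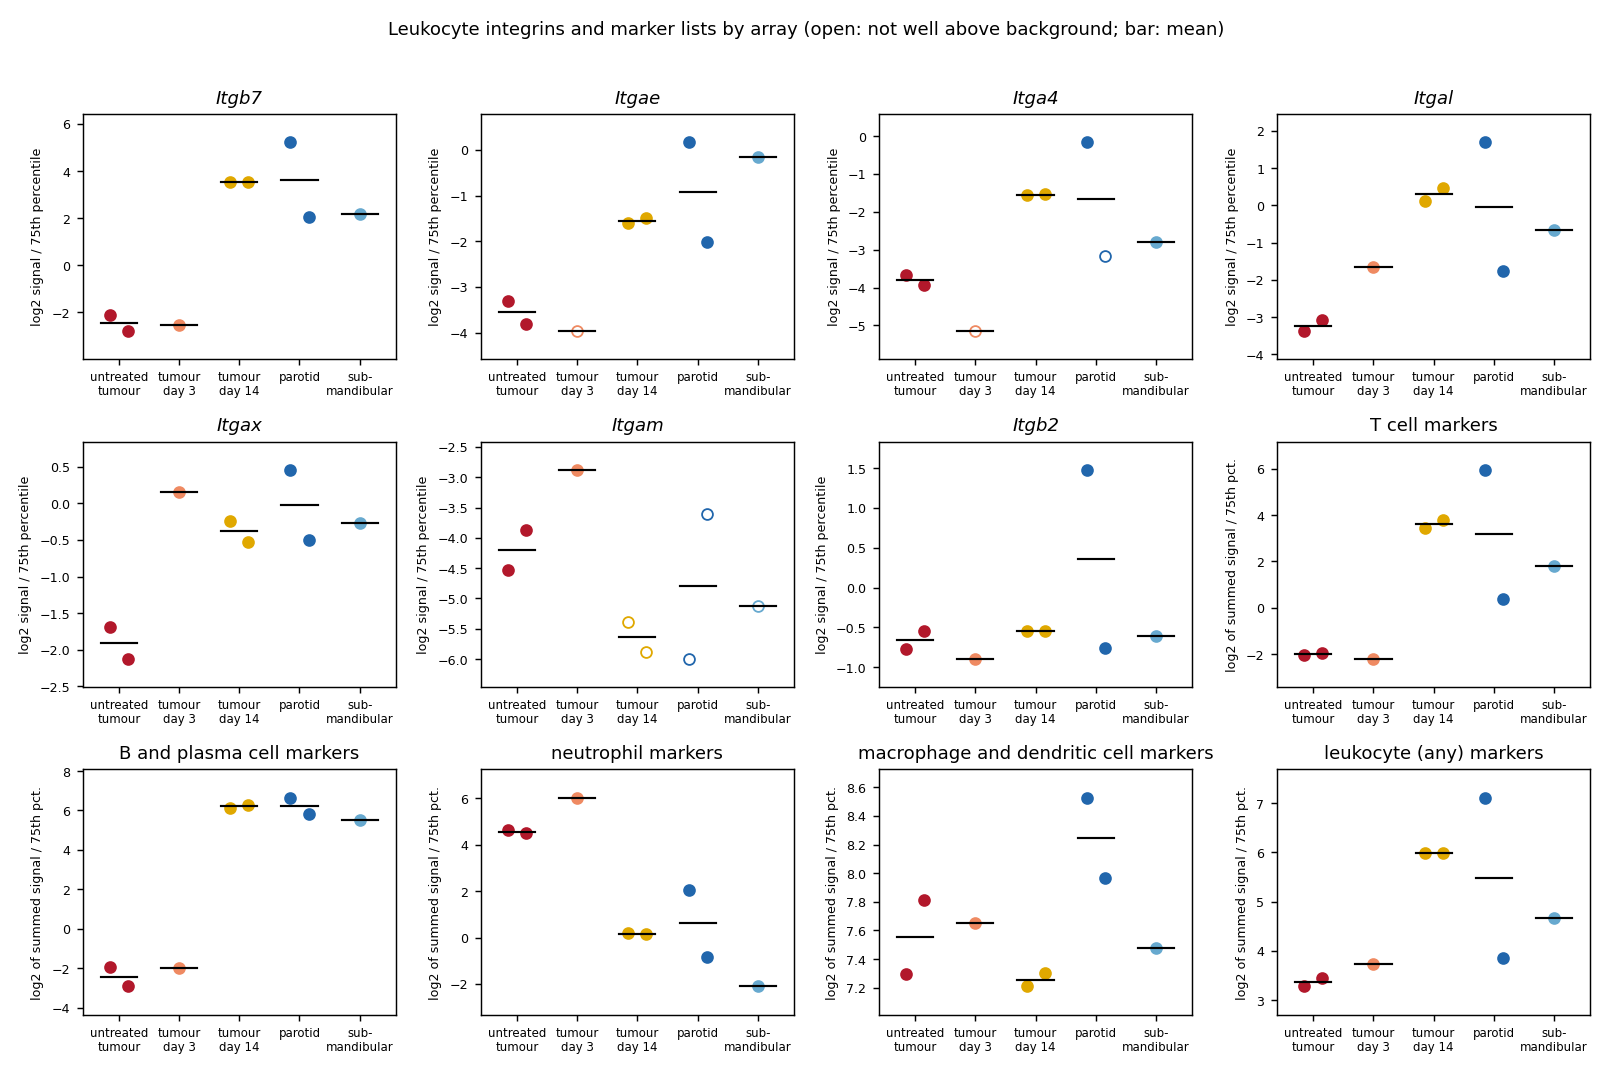
Levels of the 7 leukocyte members (log2 signal relative to the 75th percentile) and the log2 of the summed signal of 5 marker lists on each array, by group. Open points were not well above background and bars are group means. Itgb7 and the lymphocyte lists are low in untreated and day 3 tumours and high at day 14, and parotid replicate 1 lies above replicate 2 in Itgb7, Itgae, Itga4 and Itgal.

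Of 15 other integrin ligands 14 were tested, 4 were higher and 5 lower in untreated tumour against parotid (18.7% and 20.3% of all genes), and 5 were higher and 3 lower at day 14 against untreated tumour (24.3% and 23.5% of all genes). Icam1, the ligand of the Itgb2 integrins, was lower in untreated tumour than in parotid by −2.20 ± 0.55 (adjusted p = 0.0229) and higher at day 14 than in untreated tumour by 2.48 ± 0.55 (adjusted p = 0.0123). Vcam1, the ligand of the Itga4 integrins, named after its values were seen, showed −1.95 ± 0.52 (adjusted p = 0.0291) and 1.76 ± 0.52 (adjusted p = 0.0338) in those comparisons. Icam2, another Itgb2 ligand, was higher at day 14 by 2.78 ± 0.88 (adjusted p = 0.0408). Madcam1, the gut ligand of the Itga4 and Itgb7 pair, was well above background on no array.

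Cdh1, the epithelial cadherin that Itgae with Itgb7 binds, was higher in untreated tumour than in parotid by 2.01 ± 0.31 (adjusted p = 0.00438) and lower at day 14 than in untreated tumour by −1.57 ± 0.31 (adjusted p = 0.00879). Ligands of the Itgav, Itga8 and Itga9 integrins included the most changed genes of the list. Spp1, osteopontin, was higher in untreated tumour than in parotid by 4.82 ± 0.33 (28.2-fold, adjusted p = 0.000292) and lower at day 14 than in untreated tumour by −4.12 ± 0.33 (adjusted p = 0.000444).

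Vtn, vitronectin, was not well above background in untreated tumour and was at least 68.6-fold lower there than in parotid (adjusted p = 0.000515) and at least 42.3-fold higher at day 14 than in untreated tumour (adjusted p = 0.000642). Fgg, a fibrinogen chain, was at least 226-fold lower in untreated tumour than in parotid (adjusted p = 0.0299), with a wide standard error of 2.68 on the log2 difference. Thbs1, thrombospondin, was at least 4.74-fold higher in untreated tumour than in parotid, where it was not well above background (adjusted p = 0.0114). Vtn, Fgg and Thbs1 entered the test only through groups other than those where they were dim. Nothing beyond these bounds is read from their calls. Ltbp1, which carries latent TGF-beta, was higher in untreated tumour than in parotid by 2.45 ± 0.33 (adjusted p = 0.00246) and lower at day 14 by −2.58 ± 0.33 (adjusted p = 0.00174), though it was well above background on 1 of 2 arrays of parotid and of day 14.

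Among alpha integrins of mesenchymal and other cells, Itga8 and Itga9 passed in both main comparisons. Itga8, a receptor of nephronectin and fibronectin found on smooth muscle and fibroblast-like cells, was at −4.78 and −5.86 in untreated tumour, the second not well above background, against −1.34 and −2.0 in parotid. It was lower by −3.65 ± 0.47 (adjusted p = 0.00208), and by −3.98 on slide 1. The difference ran from −4.19 to −1.28 over the alternative settings, so its size is uncertain.

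At day 14 Itga8 was at 1.02 and 0.94, a rise of 6.29 ± 0.47 over untreated tumour (adjusted p = 0.000369). Itga8 passed here in all 17 alternative settings, but with sizes from 3.26 to 6.83. It was also above parotid by 2.64 ± 0.47 (adjusted p = 0.0238), with 2.36 on slide 1 and 2.93 on slide 2 and no call without either day 14 array (2.60 and 2.69), and close to the submandibular gland, at 1.26. Untreated tumour was below submandibular gland by −6.58 ± 0.57 (adjusted p = 0.000882), with −7.12 to −3.575 over the alternative settings. At day 3 Itga8 was at −2.90, above both untreated tumours and below both parotid glands.

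Itga9, a receptor of tenascin, osteopontin and Vcam1, had the opposite course. It was at 2.91 and 2.24 in untreated tumour and 2.76 at day 3, against 0.51 and −0.60 in parotid and −0.49 in submandibular gland. Untreated tumours were higher by 2.62 ± 0.44 than parotid (6.15-fold, adjusted p = 0.00574) and by 3.07 ± 0.54 than submandibular gland (adjusted p = 0.00882).

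By day 14 Itga9 was at 0.34 and −0.15, below untreated tumour by −2.48 ± 0.44 (adjusted p = 0.00578, or −2.23 and 0.0515 without day 14 replicate 2) and 0.14 ± 0.44 above parotid (adjusted p = 0.88). Itga10, a collagen receptor of cartilage, was weak but well above background in untreated tumour (−2.46 and −2.14) and at day 3 (−2.24), and on no array of the other groups. It entered the test only through the tumours where it was high, so its calls support nothing beyond those levels. Untreated tumours were at least 2.35-fold higher than parotid and at least 1.57-fold higher than submandibular gland, and day 14 tumours were at least 2.25-fold lower than untreated tumours. With normexp background correction the log2 differences shrank to 0.56, 0.95 and −0.47 and none passed. Nor did any of them with untreated tumour replicate 2 removed (3.13, 2.82 and −2.84), the second was also lost without replicate 1 or either day 14 array, and the third without day 14 replicate 1 (−2.81).

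Itga7, the laminin receptor of muscle fibres, was at −2.55 and −2.86 at day 14, against −4.25 and −5.11 in untreated tumour, and was not well above background in parotid or submandibular gland. The rise at day 14 was 1.97 ± 0.51 (adjusted p = 0.0206). It was lost in 7 of 17 alternative settings, was 0.82 with normexp background correction, and did not pass without untreated tumour replicate 2 (1.54) or either day 14 array (1.81 and 2.13). Skeletal muscle markers were also highest at day 14. Their summed signal was 0.32 and 0.18 in untreated tumour, 0.44 at day 3, 318 and 311 at day 14, 0.99 and 32.9 in parotid and 0.92 in submandibular gland. At day 14 and in parotid replicate 2 all 6 were well above background, against 1 to 3 on the other arrays. Itga7 itself was not well above background in parotid replicate 2 (−4.94). The part of these markers in the Itga7 rise was not tested.

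Lama2, the laminin alpha chain of muscle and nerve, was at −2.83 and −4.04 in untreated tumour, against −1.99 and −1.39 in parotid, and was lower by −1.74 ± 0.49 (adjusted p = 0.0343). That call was lost in 9 of 18 alternative settings, with −0.77 under normexp, −1.14 with untreated tumour replicate 2 removed and −1.44 with parotid replicate 2 removed among them. At day 14 it was at −1.36 and −1.32, a rise of 2.10 ± 0.49 (adjusted p = 0.0154), or 0.99 with normexp and 1.49 without untreated tumour replicate 2, which did not pass. Nor did it without either day 14 array (2.12 and 2.07). Fibroblast markers summed to 111 and 39.5 in untreated tumour, 119 at day 3, 86.4 and 85.0 at day 14, 139 and 221 in parotid and 149 in submandibular gland. Gene by gene, 3 of the 5 were lower in untreated tumour against parotid (median −5.02), while 3 were higher and 1 lower at day 14 (median 3.67). Of 3 Schwann cell markers, 1 was lower in untreated tumour against parotid and 2 were higher at day 14, and all 5 skeletal muscle markers tested were higher at day 14. Of all genes, 20.3% were lower in the first comparison, and 24.3% were higher and 23.5% lower in the second. Nothing is read from these counts over so few genes. The part of these lists in the Lama2 values was not tested.

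Itga1, Itga5, Itga11 and Lama4 passed neither main comparison. Itga5, the fibronectin receptor chain, was at −1.77 and −2.34 in untreated tumour, against −3.81 and −2.98 at day 14, with an adjusted p of 0.0511, and was at least 1.86-fold higher in untreated tumour than in submandibular gland (adjusted p = 0.0194), a call lost without either untreated tumour array (2.22 and 2.79) and with normexp (0.64). Itga11, a fibroblast collagen receptor, was at 0.21 and −2.13 in untreated tumour, against 0.58 and 1.15 in parotid. Its difference from parotid was −1.83 ± 0.72 (adjusted p = 0.0889). The 3 probes of Itga1 disagreed in sign in both main comparisons, so its value is uncertain. Lama4, a laminin chain of vessels, ran from −1.57 to −0.16 over the 8 arrays.

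**Figure D5:**
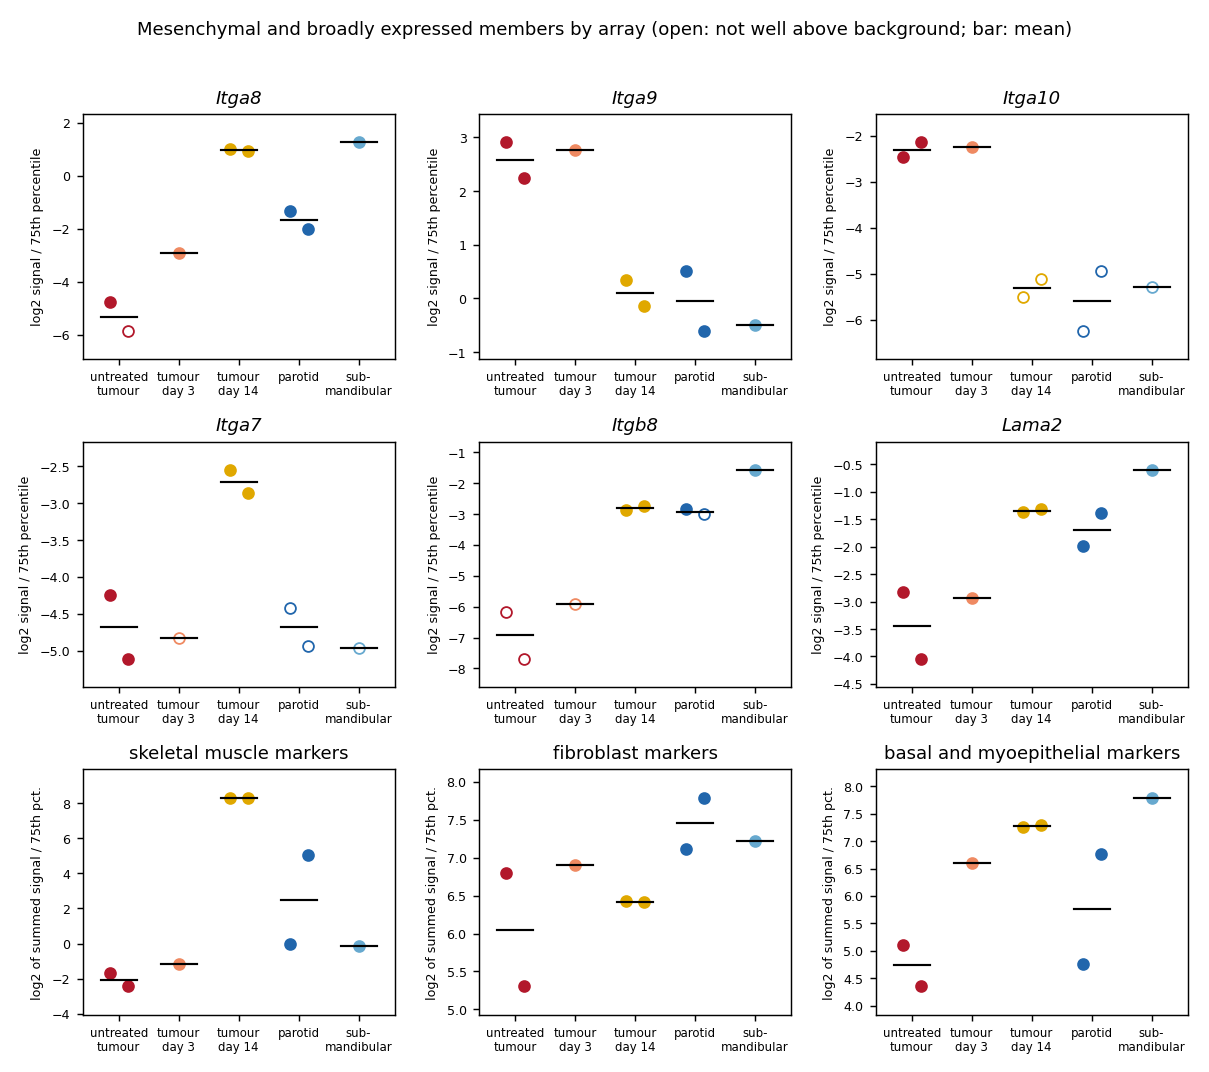
Levels of 6 mesenchymal or broadly expressed members (log2 signal relative to the 75th percentile) and the log2 summed signal of 3 marker lists on each array, by group. Open points were not well above background and bars are group means. Itga8 is lowest in untreated tumours, and Itgb8 is not well above background in untreated or day 3 tumours. Itga9 and Itga10 are highest in untreated and day 3 tumours, and Itga7 is highest at day 14, where the skeletal muscle list is also highest.

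Of the 6 broadly expressed chains tested, Itgb8 and Itgb5 passed in a main comparison. Itgb1, the beta chain shared by most laminin and collagen receptors, was at 1.00 and 0.97 in untreated tumour, 1.17 at day 3, 0.32 and 0.75 at day 14, 1.06 and 0.53 in parotid and 0.82 in submandibular gland. It passed in no comparison as fitted. The difference was 0.19 ± 0.28 between untreated tumour and parotid (adjusted p = 0.62) and −0.45 ± 0.28 between day 14 and untreated tumour (adjusted p = 0.23). With the mean of its kept probes the second difference was −1.14 (adjusted p = 0.0353), and on slide 1 it was −0.67. Its other kept probe, not well above background at day 14, differed by −1.84.

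Itgav, Lamb2 and Lamc1, the usual alpha-v chain and the common laminin beta and gamma chains, also passed in none of the 5 comparisons. For Itgav the levels of all 8 arrays lay between −0.50 and 0.12, and for Lamc1 between 2.17 and 2.85. Lamb2 ran from 1.05 to 2.61 and was 0.88 ± 0.32 higher at day 14 than in untreated tumour (adjusted p = 0.0619). Itgb3, the beta chain of platelet and vascular receptors, also passed in none, and its 2 probes disagreed in sign between untreated tumour and parotid.

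Itgb8, which like Itgb6 binds latent TGF-beta, was not well above background in untreated or day 3 tumours and entered the test only through the groups where it was high. Untreated tumours were at least 5.44-fold lower than parotid, where 1 of 2 arrays was well above background, and at least 13.9-fold lower than submandibular gland. Day 14 tumours, at −2.88 and −2.75, were at least 5.88-fold higher than untreated tumours. With normexp the log2 differences were −1.09, −1.60 and 1.11 and none passed. With 1 common floor for dim values on all arrays, the difference from parotid was −0.06 (adjusted p = 0.55) and that between day 14 and untreated tumour 0.14 (adjusted p = 0.16). Itgb5 was at 5.12 and 4.94 at day 14, against 3.91 and 3.85 in untreated tumour, a rise of 1.15 ± 0.26 (adjusted p = 0.0126). It was lower in untreated tumour than in submandibular gland by −1.72 ± 0.31 (adjusted p = 0.00984). A fixed slide term removed this second call (−1.51, adjusted p = 0.0697). Without either untreated tumour array neither passed, at 1.18 and 1.12 for the first and −1.75 and −1.69 for the second, and the first was also lost without either day 14 array.

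Inside the cell, adaptors and kinases couple integrins to actin. Of 25 tested, 8 were higher and 3 lower in untreated tumour against parotid (18.7% and 20.3% of all genes), and 5 were higher and 8 lower at day 14 against untreated tumour (24.3% and 23.5% of all genes), with medians of 0.06 and −0.15 against 0.02 over all genes in each. Tln2, a talin, was higher in untreated tumour than in parotid by 2.09 ± 0.44 (adjusted p = 0.0126) and lower at day 14 by −2.30 ± 0.44 (adjusted p = 0.00709). Tns4, an epithelial tensin, was at least 1.52-fold higher in untreated tumour than in parotid (adjusted p = 0.0486) and at least 1.46-fold lower at day 14 than in untreated tumour (adjusted p = 0.0181). Parvb, a parvin that binds the kinase Ilk, was at least 1.51-fold higher in untreated tumour than in parotid (adjusted p = 0.013). It was at least 1.45-fold lower at day 14 than in untreated tumour (adjusted p = 0.00637). Neither Tns4 nor Parvb was well above background in parotid or at day 14, where weak genes could be read less deeply. Nothing beyond these small bounds is read from their calls.

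The focal adhesion genes Lims2, Tns1 and Ptk2b ran the other way. Lims2, a partner of Ilk, was lower in untreated tumour than in parotid by −2.99 ± 0.48 (adjusted p = 0.00473) and higher at day 14 than in untreated tumour by 4.73 ± 0.48 (adjusted p = 0.000831). Tns1, a tensin, showed −1.97 ± 0.32 (adjusted p = 0.00488) and 2.50 ± 0.32 (adjusted p = 0.00174), and Ptk2b, a kinase related to focal adhesion kinase, showed −1.24 ± 0.29 (adjusted p = 0.0185) and 1.17 ± 0.29 (adjusted p = 0.0181). Fermt1, the epithelial kindlin that activates integrins, was not well above background in untreated tumour and was at least 5.51-fold higher at day 14 (adjusted p = 0.00759). It did not enter the test through the untreated tumours, so nothing beyond this bound is read from its call.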

How the data were processed

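Total RNA was hybridised to 1-colour Agilent arrays (design 014868). Per the file headers, Feature Extraction 10.7.3.1 gave the deposited intensity of each spot, background-subtracted and not scaled between arrays, and probe positions on mm8. The authors' deposited log2 values, whose centring and scaling method is not given in the sources used here (column medians 5.52 to 5.57), served as an alternative only and ran in the direction of the intensities. Non-uniform and population-outlier spots were removed. Probes entered if a share of 0.5 or more of their spots exceeded background clearly on all arrays of some group. The brightest kept probe stood for each gene. Log2 intensity minus the array's 75th percentile was fitted with limma 3.58.1 (R 4.3.3), 5 group means over 8 arrays, intensity trend, with Benjamini-Hochberg adjustment over 16363 genes at 0.05, two-sided. The number of arrays limits the precision. The fit was tested on simulated data. Named were all members past the threshold in the 2 main comparisons, the 4 largest each way in the others, Lama3, Lamb3, Itga6, Itgb4, Itgb6, Itgb1 and leukocyte members, and up to 3 genes a direction per list, beside Vcam1 and Madcam1, added later. One member enters the counts but is not reported here. The members, lists and rule were chosen with earlier results of these data known. Alternatives are given at the end.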

Additional observations from a re-analysis of the deposited data

How the results depend on the processing

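Alternatives recounted the members past the threshold. In untreated tumour against parotid the 13 calls became 7 to 16 when 1 array was left out, with 7 without untreated tumour replicate 2, and the split of 5 higher and 8 lower became 5 and 5 with the deposited log2 values. In day 14 against untreated tumour the 14 calls became 22 with the arrays of the 2 groups alone and 7 to 22 with 1 array left out, 7 without untreated tumour replicate 2 or either day 14 replicate and 22 without either parotid replicate. In day 3 against untreated tumour 0 calls became 2 with a common floor for dim values, an alternative added after seeing the data, and 0 to 2 with 1 array left out, 2 without either parotid replicate. In day 14 against parotid the 5 calls became 2 with normexp background correction, 3 with genes well above background on all 8 arrays, with slide as a fixed block, with the 2 groups alone and with the common floor, and 0 to 14 with 1 array left out, 0 without either day 14 replicate and 10 and 14 without parotid replicates 1 and 2. In untreated tumour against submandibular gland the 15 calls became 8 with normexp or the slide block, 9 with genes above background on all 8 arrays, and 6 to 18 with 1 array left out. Calls over all genes moved too, and with the 2 groups alone day 14 against untreated tumour had 10560 of them, against 7810 as fitted. With 1 array left out they rose and fell as the member counts did, so these counts are not a result about the members. The cause was not tested. Itgb7, Lama3, Lama5, Itga6, Itga8 and Itga9 kept direction and side of the threshold in every alternative run for untreated tumour against parotid, and Itga8, Itgb6, Itgb7, Lama3 and Lamb3 in every one for day 14 against untreated tumour.

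No called difference changed sign. Among differences that were not called, untreated tumour against parotid turned for Itgam with normexp (−0.36) and the common floor (0), for Itgb1 on slide 1 (−0.077) and for Itgb6 with normexp (−0.12). With 1 array left out the ranges were −0.60 to 1.79 for Itgam, −0.077 to 0.45 for Itgb1, −2.13 to 0.10 for Itgb2 and −0.48 to 1.46 for Itgb6, the ends given by the parotid replicates. In day 14 against untreated tumour Itgam turned with normexp (0.39), and Itgb2 ran from −0.0073 to 0.22 with 1 array left out. The median of all genes for untreated tumour against parotid, 0.02 as fitted, was −0.12 with normexp, 0.12 with quantile normalization and −0.97 with no filter on dim probes. For day 14 against untreated tumour it was 0.02, 0.16 with normexp, −0.12 with the deposited values and 1.09 with no filter. No paired analysis was possible because the groups compared share fewer than 2 replicate numbers in the labels. Dim probes limit Itgb8, Itga10, Itgam and Itga7, and the size of the Itga8 differences from untreated tumour.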
